A study of Mus musculus with 6 samples.

Results

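The genes described here are 34 imprinted mouse genes, chosen by name from well-known imprinted loci and grouped by locus, among the 55334 gene rows of an RNA-seq count table. The choice was made with earlier results of these data known. Of the 34, 25 reached 10 counts in at least 3 of the 6 libraries, as did 16149 rows of the whole table, and those 25 are described in full. The other 9 (Igf2, Cdkn1c, Slc22a18, Ascl2, Nap1l5, Usp29, Zim1, Magel2 and Dlk1) stayed under that level and are given by their raw counts.

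Imprinted genes are expressed mainly from the allele inherited from one parent. At many loci, though not all, DNA methylation laid down in the germ line marks out that allele at imprinting control regions. Many imprinted genes lie in clusters in which one control region can act on several genes, often through a long non-coding RNA or through insulation of shared enhancers. Many act on fetal and placental growth, and a number of them are altered in tumours. The direction of imprinting named for each gene below is textbook background. The counts do not distinguish alleles, so neither loss of imprinting nor a change of allele can be read from them.

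JAG2KO cells were Lewis lung carcinoma cells, a transplantable mouse lung tumour line, that expressed GFP and carried a guide RNA against Jag2, a ligand of Notch receptors. Scramble cells were the same GFP line with a scrambled guide. Both were grown as flank tumours in mice, and at the end of the experiment GFP-positive, CD45-negative, DAPI-negative (live) cells were sorted from Liberase-dissociated tumours and their polyadenylated RNA was sequenced in 3 libraries per group. The labels do not give the strain, sex or age of the mice, whether either line was a clone or a pool, or whether the libraries came from separate mice, so the p-values measure the spread between these libraries only.

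Total counts lay between 37036772 and 42914376 in the JAG2KO libraries, called JagKO2, JagKO3 and JagKO4 in the table, and between 39448304 and 43923565 in the Scramble libraries. At these depths 3 counts equal 0.068 to 0.0811 CPM, counts scaled to library size. The targeted gene, Jag2, had 0.514, 0.799 and 1.11 CPM in the JAG2KO libraries, against 1.52, 1.10 and 1.02 CPM in the Scramble libraries, and the groups overlapped (log2 fold change -0.58, edgeR adjusted p = 0.318). The labels do not give the position of the guide, so this level does not check them. Of 10 lung epithelium markers, Sftpb and Nkx2-1 had 0 counts in all 6 libraries, and 4 (Epcam, Krt8, Krt18 and Cdh1) had enough counts to be tested.

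Promoter windows are shown for the 4 genes with the largest called changes among the members that reached 10 counts in both groups: Sfmbt2, Peg3 and Ndn were higher in JAG2KO cells and Ppp1r9a was lower. Each window holds 250 bases before to 50 bases after an annotated RNA start, from RefSeq on GRCm38.p6, and is the first window listed for its gene. Capitals mark CG dinucleotides, which can carry methylation, and methylation was not measured. Sfmbt2 is at chr2:10370201-10370500 (plus strand), Peg3 at chr7:6730370-6730669 (minus strand), Ndn at chr7:62348027-62348326 (plus strand) and Ppp1r9a at chr6:4903061-4903360 (plus strand).
Sfmbt2: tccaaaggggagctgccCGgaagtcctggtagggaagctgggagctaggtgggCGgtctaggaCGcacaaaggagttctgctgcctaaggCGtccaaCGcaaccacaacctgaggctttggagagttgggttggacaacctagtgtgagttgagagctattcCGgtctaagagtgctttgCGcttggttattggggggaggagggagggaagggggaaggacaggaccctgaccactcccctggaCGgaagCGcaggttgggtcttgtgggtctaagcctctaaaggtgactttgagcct
Peg3: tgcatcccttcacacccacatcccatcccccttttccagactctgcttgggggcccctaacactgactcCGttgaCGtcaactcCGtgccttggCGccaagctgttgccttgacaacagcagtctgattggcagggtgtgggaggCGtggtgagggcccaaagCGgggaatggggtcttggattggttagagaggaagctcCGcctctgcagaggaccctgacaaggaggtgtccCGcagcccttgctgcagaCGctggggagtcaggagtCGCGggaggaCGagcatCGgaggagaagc
Ndn: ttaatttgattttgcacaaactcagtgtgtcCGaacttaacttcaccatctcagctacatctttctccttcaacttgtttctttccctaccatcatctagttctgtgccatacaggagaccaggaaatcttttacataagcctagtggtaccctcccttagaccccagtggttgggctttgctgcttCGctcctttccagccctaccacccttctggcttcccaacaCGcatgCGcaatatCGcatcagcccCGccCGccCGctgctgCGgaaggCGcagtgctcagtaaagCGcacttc
Ppp1r9a: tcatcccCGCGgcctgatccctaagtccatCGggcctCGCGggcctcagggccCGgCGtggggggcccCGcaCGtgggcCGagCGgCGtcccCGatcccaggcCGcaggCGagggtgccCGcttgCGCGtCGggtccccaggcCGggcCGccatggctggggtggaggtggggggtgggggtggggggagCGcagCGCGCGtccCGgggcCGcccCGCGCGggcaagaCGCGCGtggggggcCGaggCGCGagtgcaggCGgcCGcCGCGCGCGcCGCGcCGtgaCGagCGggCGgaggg
The Ppp1r9a window held 48 CG dinucleotides, a density reached by 1.22% of all 32851 windows, whereas the Peg3, Ndn and Sfmbt2 windows held 13, 11 and 9. This contrast holds for the first listed windows only. Ppp1r9a and Sfmbt2 each had 2 windows, and those not printed held 10 and 16. TGCCGC, the letters that the imprint-protecting protein ZFP57 binds when methylated, was searched on both strands and was in none of these 4 windows. Windows existed for 29 of the 34 members. The letters were in 12 of the 46 windows of these members (26.1%), against 11.6% of all windows, and the median number of CG dinucleotides was 13 in the members' windows and 7 in all windows. A match describes the letters only, and some windows overlap: those of Peg3 and Usp29 share 263 bases.

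Across the 16049 genes that entered the test, 24.3% passed an adjusted p of 0.05 in edgeR's quasi-likelihood test, 11.8% higher and 12.5% lower in JAG2KO cells. Among the 25 imprinted genes tested, 15 passed (60.0%). The members were chosen with earlier results of these data known, so this share is no test of imprinted genes as a class. Higher in JAG2KO cells were 9: H19, Mest, Sfmbt2, Peg3, Ndn, Plagl1, Grb10, Rian and Mirg. Lower were 6: Phlda2, Igf2r, Peg10, Ppp1r9a, Peg12 and Zrsr1. Phlda2 and Mirg reached 10 counts in one group only and so had to differ in order to be tested, and without them 13 of 23 passed (56.5%). Those 23 still hold Sfmbt2, Ppp1r9a and Asb4, which reached 10 counts in all 3 libraries of their higher group only. The median log2 fold change was 0.09 over the 25 genes and 0.00 over all tested genes, while the median size of the change regardless of sign was 0.82 over the 25 and 0.24 over all. Changes of at least 2-fold were called for 10 of the 25, and for 8 of the 23 without Phlda2 and Mirg, against 6.21% of all tested genes. The groups did not overlap for 17 of the 25, and for 15 of the 23 without Phlda2 and Mirg, against 40.3% of all tested genes. Both parental classes moved in both directions. Of 13 tested genes usually expressed from the paternal allele 5 were higher and 3 lower. Of 12 usually expressed from the maternal allele, Phlda2 and Mirg among them, 4 were higher and 3 lower.

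**Figure D1:**
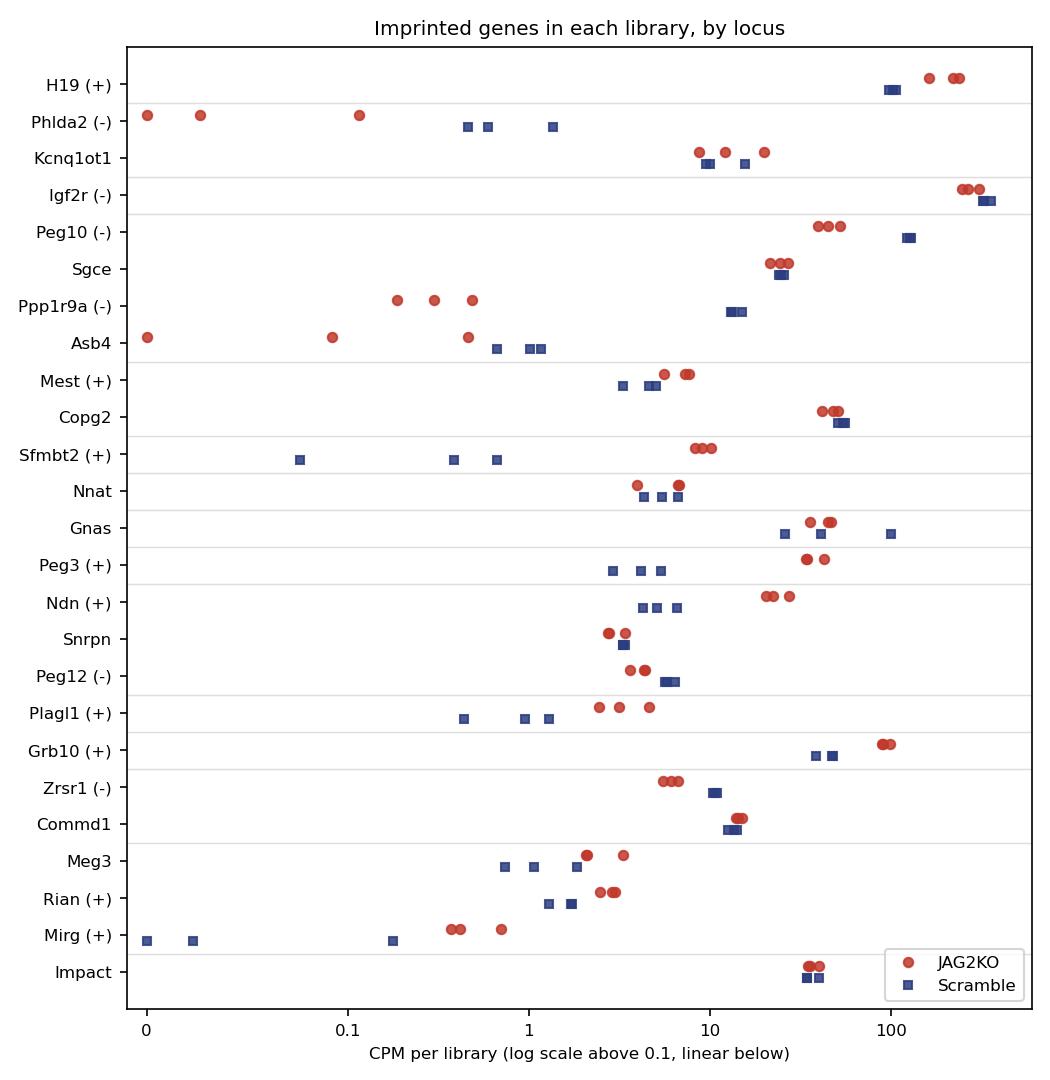
CPM of the 25 tested imprinted genes (rows, grouped by locus) in each of the 3 JAG2KO (circles) and 3 Scramble (squares) libraries, on an axis that is logarithmic above 0.1 and linear below it; a plus or minus after a name marks an edgeR adjusted p under 0.05. The circles and squares of Sfmbt2, Peg3, Ndn and Ppp1r9a stand far apart, while those of Sgce, Snrpn, Commd1 and Impact lie on each other.

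Some lists of markers of other cell types differed between the groups as well. The summed level of 13 fibroblast markers was 9998, 6778 and 6330.1 CPM in JagKO2, JagKO3 and JagKO4, against 5003.5 to 5088 CPM in the Scramble libraries, with 6 of 13 markers higher and 1 lower. The 10 pericyte markers summed to 130.3 to 185 CPM in JAG2KO libraries and 70.5 to 91.1 CPM in Scramble libraries, with 8 of 10 higher. Macrophage markers summed to 99.9 to 119.8 CPM in JAG2KO libraries and 65.3 to 75.3 CPM in Scramble libraries (4 of 14 higher, 1 lower). Endothelial markers summed to 129.9 to 156.9 CPM in JAG2KO libraries and 138.2 to 140.5 CPM in Scramble libraries, where the ranges overlapped, although 7 of 13 were higher and 1 lower. None of these 4 lists had a marker at 0 in all 6 libraries. Markers of muscle, fat, skin and red cells summed to 49.8 to 116.4 CPM in JAG2KO libraries and 64.9 to 86.5 CPM in Scramble libraries (2 of 14 tested higher, 3 lower, Myod1 at 0). Lung epithelium markers summed to 283 to 339 CPM in JAG2KO libraries and 389 to 398 CPM in Scramble libraries, with 1 of 4 tested lower. The share of tested markers called was 53.8% for fibroblasts, 80.0% for pericytes, 61.5% for endothelium and 35.7% for macrophages. It was 35.7% for muscle, fat, skin and red cells and 25.0% for lung epithelium, against 24.3% of all tested genes. Whether these RNAs came from other cells or from the sorted tumour cells was not tested. The part of other cells in the changes of the imprinted genes was not tested either. In bulk samples, fewer cells of a type and less RNA per cell cannot be told apart.

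**Figure D2:**
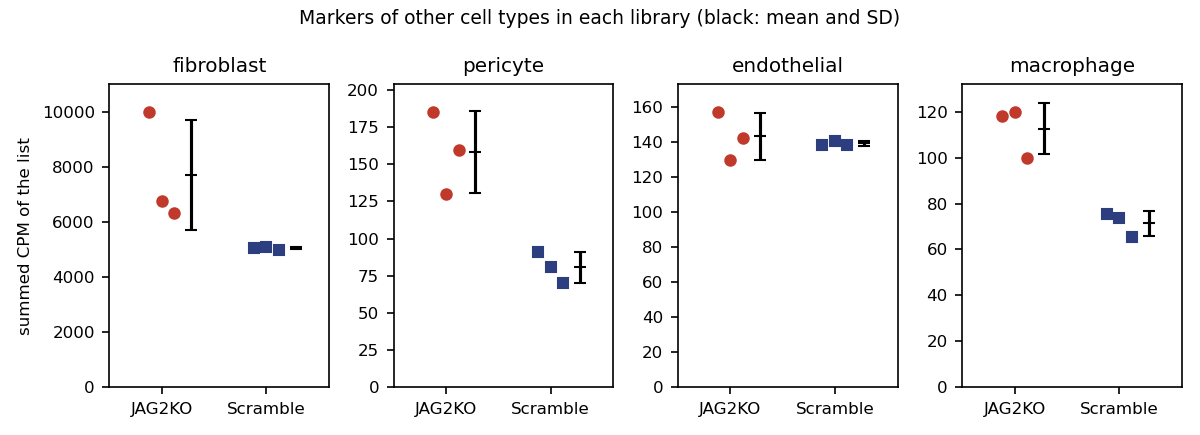
Summed CPM (vertical axis) of the fibroblast, pericyte, endothelial and macrophage markers in each JAG2KO (circles) and Scramble (squares) library; black marks give the mean and SD of 3 libraries. The fibroblast, pericyte and macrophage sums of the JAG2KO libraries lie above all Scramble libraries, and the endothelial sums overlap.

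The largest rise among the imprinted genes was that of Sfmbt2, which encodes a Polycomb-group protein with MBT domains and is paternally expressed in the mouse placenta. The gene lies on the plus strand at chr2:10370510-10595253. It had 8.27, 10.1 and 9.07 CPM in JagKO2, JagKO3 and JagKO4, against 0.385, 0.665 and 0.0763 CPM in Scramble replicates 1, 2 and 3. Every JAG2KO library was above 8 CPM and every Scramble library was below 1 CPM. The means were 9.15 ± 0.924 CPM in JAG2KO cells and 0.376 ± 0.295 CPM in Scramble cells (SD, n = 3 each), and the edgeR fit gave a ratio of 23.8 (log2 fold change 4.57, SE 0.41, edgeR adjusted p = 1.05e-05). The size rests in part on single Scramble libraries. Without replicate 2 the log2 fold change was 5.26, and without replicate 3, which had 3 counts, it was 4.11. Of 8 other tested genes within 1 Mb, 2 were higher, among them Itih5 at a log2 fold change of 1.26.

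Peg3, a paternally expressed zinc finger protein that in the mouse acts on growth and maternal behaviour, also rose. It lies on the minus strand at chr7:6703892-6730431 and shares its control region with Usp29. Peg3 had 42.3, 34.3 and 33.8 CPM in the JAG2KO libraries, against 2.92, 5.37 and 4.17 CPM in the Scramble libraries. All JAG2KO libraries stood far above all Scramble libraries. Means were 36.8 ± 4.80 CPM in JAG2KO cells and 4.16 ± 1.22 CPM in Scramble cells (SD, n = 3 each), and the fitted ratio was 8.85 (log2 fold change 3.15, SE 0.18, edgeR adjusted p = 3.04e-07). JagKO2 was highest for Peg3 and for the fibroblast and pericyte sums. Among the Scramble libraries, replicate 1 was lowest for Peg3 and highest for the pericyte sum. The part of those cells was not tested. Usp29, a ubiquitin protease transcribed away from Peg3, had 7, 1 and 27 counts in the JAG2KO libraries and 0, 6 and 0 counts in the Scramble libraries. Its ratio of summed counts per depth was 6.28 (95% exact binomial interval 2.62 to 18.3, counting error only), but the counts of the groups overlapped. Zim1, a maternally expressed zinc finger gene beside Peg3, had 0, 1 and 6 counts in the JAG2KO libraries and 0, 1 and 0 counts in the Scramble libraries. Among 14 other tested genes within 1 Mb of Peg3, edgeR called 0, with 1 at an unadjusted p under 0.05, while DESeq2 called 1 and limma-voom called 0.

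In the Prader-Willi region of chromosome 7 the paternally expressed genes did not move together. Ndn encodes necdin, a growth-restraining MAGE-family protein first known from neurons, and lies on the plus strand at chr7:62346569-62350262. It had 27.3, 22.2 and 20.4 CPM in the JAG2KO libraries, against 4.28, 5.07 and 6.57 CPM in the Scramble libraries. JAG2KO libraries were all above 20 CPM and Scramble libraries all below 7 CPM. Ndn averaged 23.3 ± 3.56 CPM in JAG2KO cells and 5.31 ± 1.16 CPM in Scramble cells (SD, n = 3 each), and the fitted ratio was 4.39 (log2 fold change 2.13, SE 0.17, edgeR adjusted p = 3.86e-06). As with Peg3, JagKO2 was highest and Scramble replicate 1 was lowest, and the part of fibroblasts and pericytes was not tested.

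Peg12, an intronless gene of the same region, went the other way, with 4.38, 4.31 and 3.62 CPM in the JAG2KO libraries and 5.78, 5.64 and 6.41 CPM in the Scramble libraries. Its groups did not overlap (log2 fold change -0.53, SE 0.17, edgeR adjusted p = 0.0432), but the call was lost with no filter on low counts and without JagKO3, JagKO4 or any 1 of the 3 Scramble libraries, with adjusted p = 0.0645 to 0.139. Snrpn, a splicing protein gene that overlaps other gene models on its strand, did not pass, with 2.78, 2.74 and 3.39 CPM in the JAG2KO libraries and 3.29, 3.30 and 3.38 CPM in the Scramble libraries (log2 fold change -0.16, SE 0.21, edgeR adjusted p = 0.633). Per kilobase of exon, Ndn had 4.05 ± 0.387 times the CPM of Peg12 in JAG2KO cells and 0.634 ± 0.101 times in Scramble cells (SD, n = 3 each), so the order of these neighbours was turned round. Magel2, another MAGE-family gene of the region, had 0 counts in every JAG2KO library and 5, 0 and 0 counts in the Scramble libraries. The 2 other tested genes within 1 Mb of Ndn were Mkrn3 and the pseudogene Atp5l-ps1, both at low levels. Mkrn3 averaged 0.716 CPM in JAG2KO cells and 1.11 CPM in Scramble cells, and Atp5l-ps1 0.243 and 0.393 CPM. They passed in none of edgeR, DESeq2 and limma-voom, and 0 had an unadjusted p under 0.05.

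Plagl1, a paternally expressed zinc finger factor that restrains proliferation and, in the mouse, acts within a network of imprinted growth genes, was higher in JAG2KO cells. It lies on the plus strand at chr10:13060504-13131694. Its level was 3.16, 4.58 and 2.45 CPM in the JAG2KO libraries, against 0.952, 0.436 and 1.30 CPM in the Scramble libraries. Every JAG2KO library was above every Scramble library, and the fitted ratio was 3.80 (log2 fold change 1.92, SE 0.39, edgeR adjusted p = 0.00351). Of 12 other tested genes within 1 Mb of it on chromosome 10, 2 were higher, among them Phactr2, within the 3 nearest (log2 fold change 2.78), and 1 was lower.

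Grb10 and Igf2r, which act on insulin and IGF signalling, moved in opposite directions. Grb10 encodes an adaptor that binds and damps the insulin and IGF1 receptors and is maternally expressed outside the brain. It had 98.9, 89.6 and 90.4 CPM in the JAG2KO libraries, against 48.0, 47.2 and 38.6 CPM in the Scramble libraries. All JAG2KO libraries lay above all Scramble libraries, with means of 93.0 ± 5.14 CPM in JAG2KO cells and 44.6 ± 5.20 CPM in Scramble cells (SD, n = 3 each; log2 fold change 1.06, SE 0.09, edgeR adjusted p = 6.31e-06). Of the 2 other tested genes within 1 Mb of Grb10, edgeR, DESeq2 and limma-voom called 0, and 1 had an unadjusted p under 0.05.

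Igf2r encodes the mannose-6-phosphate receptor that clears IGF2 and is maternally expressed in the mouse. It had 307, 267 and 246 CPM in the JAG2KO libraries, against 327, 355 and 321 CPM in the Scramble libraries. The groups did not overlap but were close (log2 fold change -0.29, SE 0.08, edgeR adjusted p = 0.023). Leaving out JagKO3, JagKO4, Scramble replicate 1 or Scramble replicate 2 ended the call, with adjusted p = 0.0629 to 0.111. Airn, the antisense non-coding RNA that silences the paternal Igf2r allele in the mouse and the nearest tested gene, averaged 9.13 ± 0.299 CPM in JAG2KO cells and 7.55 ± 1.15 CPM in Scramble cells (SD, n = 3 each) and did not pass (log2 fold change 0.27, edgeR adjusted p = 0.218). Without a stated strand setting, reads of Airn and Igf2r cannot be told apart where they overlap. Igf2 itself, the paternally expressed growth factor, had 0, 1 and 1 counts in the JAG2KO libraries and 0, 0 and 0 counts in the Scramble libraries. Another gene model with 0 counts covers 62.8% of its exon bases on the same strand, so how overlapping reads were treated could bear on this level.

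H19, the maternally expressed long non-coding RNA that shares enhancers with Igf2, was the member with the highest level per kilobase in both groups, at 83.9 CPM per kb in JAG2KO cells and 41.4 CPM per kb in Scramble cells. It lies on the minus strand at chr7:142575529-142578143. Its libraries had 219, 237 and 163 CPM in JAG2KO cells, against 106 CPM, 97.4 CPM and 102 CPM in Scramble cells. Here the groups stood apart, and the part of other cell types was not tested. The means were 206 ± 38.9 CPM in JAG2KO cells and 102 ± 4.30 CPM in Scramble cells (SD, n = 3 each), and the fitted ratio was 2.03 (log2 fold change 1.02, SE 0.11, edgeR adjusted p = 5.44e-05). Of the 5 listed members in the adjacent Kcnq1ot1 domain, 2 were tested, and Phlda2 was the 1 that passed. This maternally expressed inhibitor of placental growth had 0, 1 and 5 counts in the JAG2KO libraries and 60, 26 and 18 counts in the Scramble libraries. No overlap was seen, though all 6 values were low (log2 fold change -3.93, SE 0.83, edgeR adjusted p = 0.00497). Per depth, the JAG2KO counts summed to 0.0621 of the Scramble counts (95% exact binomial interval 0.0223 to 0.14, counting error only, without the spread between libraries), and without JagKO4 to 0.0164 of them (0.000411 to 0.0933), where 1 JAG2KO count is left.

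Cdkn1c, the CDK inhibitor p57 and also maternally expressed, had 4, 6 and 3 counts in the JAG2KO libraries and 27, 8 and 2 counts in the Scramble libraries. Slc22a18, a transporter gene next to Phlda2, had 3, 2 and 1 counts in JAG2KO libraries and 15, 0 and 4 counts in Scramble libraries. In both, Scramble replicate 1 held the most counts, as it did for Phlda2, and the groups overlapped. Ascl2, a transcription factor of the placenta and of gut stem cells, had 5, 1 and 4 counts in JAG2KO libraries and 3, 1 and 0 counts in Scramble libraries. Kcnq1ot1, the paternally expressed non-coding RNA of the domain, did not pass, at 8.73, 19.9 and 12.03 CPM in JAG2KO libraries and 15.6, 10.004 and 9.52 CPM in Scramble libraries (log2 fold change 0.21, SE 0.27, edgeR adjusted p = 0.613).

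On proximal chromosome 6 the strongest fall was that of Ppp1r9a, which encodes neurabin, an actin-binding scaffold of protein phosphatase 1 that is maternally expressed in some mouse tissues. It lies on the plus strand at chr6:4902917-5165661, and the CG-dense window printed above is 1 of its 2 windows. Its level was 0.487, 0.186 and 0.300 CPM in the JAG2KO libraries, against 15.1, 13.1 and 13.2 CPM in the Scramble libraries. No JAG2KO library reached 1 CPM and no Scramble library was below 13 CPM. The means were 0.324 ± 0.152 CPM in JAG2KO cells and 13.8 ± 1.12 CPM in Scramble cells (SD, n = 3 each), and the fit put the level 42.4 times higher in Scramble (log2 fold change -5.41, SE 0.26, edgeR adjusted p = 4.26e-08). Among the tested members it ranked last of 25 per kilobase in JAG2KO cells, and 16 of 25 in Scramble cells.

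Peg10, a paternally expressed gene derived from a retrotransposon and needed for the mouse placenta, lies on the plus strand of the same chromosome at chr6:4747306-4760517. It had 39.5, 52.2 and 44.9 CPM in the JAG2KO libraries, against 127 CPM, 128 CPM and 122 CPM in the Scramble libraries. All JAG2KO libraries were below all Scramble libraries, with means of 45.5 ± 6.39 CPM in JAG2KO cells and 125.9 ± 3.38 CPM in Scramble cells (SD, n = 3 each), and the fit put the level 2.76 times higher in Scramble (log2 fold change -1.47, SE 0.09, edgeR adjusted p = 5.16e-07). Sgce, which encodes epsilon-sarcoglycan, starts close to Peg10 in the opposite direction from a shared promoter region. Sgce had 27.0, 24.2 and 21.4 CPM in the JAG2KO libraries and 24.5, 24.1 and 25.6 CPM in the Scramble libraries, and the groups overlapped (log2 fold change -0.03, SE 0.10, edgeR adjusted p = 0.859). Per kilobase, Peg10 had 3.03 ± 0.614 times the CPM of Sgce in JAG2KO cells and 8.11 ± 0.474 times in Scramble cells (SD, n = 3 each), and these ratios of the paired neighbours did not overlap.

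Asb4, which encodes a subunit of a ubiquitin ligase, had 0.460, 0 and 0.0924 CPM in the JAG2KO libraries, against 1.02, 0.665 and 1.17 CPM in the Scramble libraries. The groups did not overlap, but the test missed the threshold (log2 fold change -2.37, SE 0.81, edgeR adjusted p = 0.0511). With no filter, with DESeq2, with limma-voom and without JagKO2 it passed, at adjusted p = 0.00101 to 0.0174. Its summed counts per depth in JAG2KO libraries were 0.189 of those in Scramble libraries (95% exact binomial interval 0.113 to 0.301, counting error only), and without JagKO2 0.0523 of them (0.014 to 0.138). Genes outside the list moved here too. Of 11 other tested genes within 1 Mb of Ppp1r9a, 7 were lower and 2 higher, against 186 lower and 97 higher of 807 other tested genes of chromosome 6. The nearest to Ppp1r9a were Gm44250, Pon3 and Pon2, with log2 fold changes of -0.77, -0.65 and -0.76. The nearest to Peg10 were Casd1, Gm44432 and Col1a2, with -2.33, -2.24 and 0.93. Gm44432 lies within the span of Casd1, so these may not be separate changes. It was low, at means of 0.0688 CPM in JAG2KO cells and 0.334 CPM in Scramble cells. Pdk4, named after its value was seen, stood out as higher, at 2.71. Calls beside members were not confined to this locus. Within 1 Mb of Mest, 7 of 15 other tested genes were lower and 1 higher. Within 1 Mb of Zrsr1, 6 of 15 were higher and 1 lower. For H19 the numbers were 4 higher and 3 lower of 21, and for Phlda2 3 and 3 of 22. For Igf2r they were 1 and 1 of 19, for Rian 0 and 2 of 14, and for Mirg 0 and 2 of 16.

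**Figure D3:**
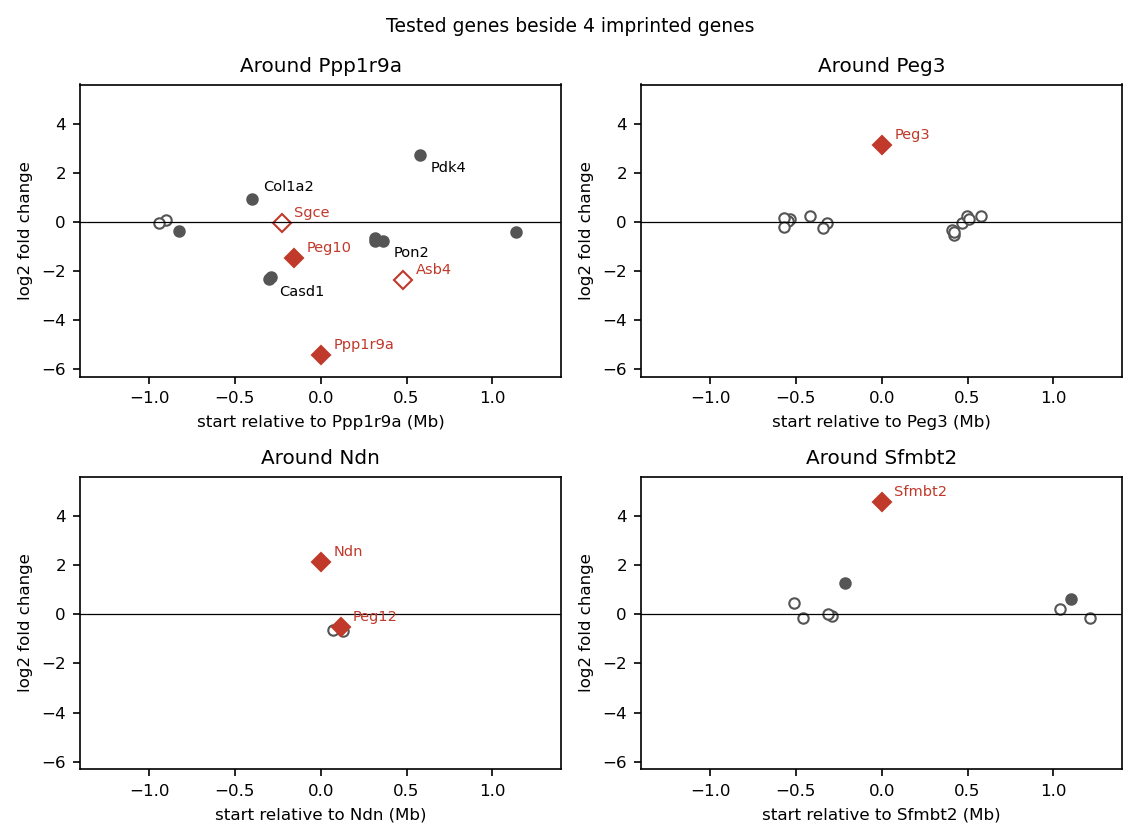
Log2 fold change, JAG2KO over Scramble (vertical axis), of tested genes within 1 Mb of Ppp1r9a, Peg3, Ndn and Sfmbt2, by the distance of their annotated starts in Mb; diamonds are imprinted genes of the list, circles are other genes, and filled symbols have an edgeR adjusted p under 0.05. Around Ppp1r9a 9 of 11 other genes passed, around Peg3 0 of 14, and around Ndn 0 of 2, both at low levels.

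Further along chromosome 6, Mest, a paternally expressed gene of the alpha/beta hydrolase family active in mesoderm, had 7.25, 5.59 and 7.67 CPM in the JAG2KO libraries, against 5.01, 3.33 and 4.63 CPM in the Scramble libraries. The groups did not overlap but stood close (log2 fold change 0.66, SE 0.20, edgeR adjusted p = 0.0336), and the call was lost on leaving out JagKO2, JagKO4 or one of Scramble replicates 2 and 3, at adjusted p = 0.0575 to 0.128. Copg2, a coat protein gene on the opposite strand whose exons overlap those of Mest by 912 bp, had 50.7, 41.5 and 47.5 CPM in JAG2KO libraries and 50.7, 54.3 and 55.7 CPM in Scramble libraries (log2 fold change -0.20, SE 0.09, edgeR adjusted p = 0.113). Without JagKO2 it passed as lower, at adjusted p = 0.0362. The sources used here do not give the strand setting of the counting, so reads of the shared stretch cannot be assigned to one of the pair. Nap1l5, an intronless paternally expressed gene, had 0, 2 and 0 counts in JAG2KO libraries and 1, 1 and 1 counts in Scramble libraries.

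On chromosome 11, Zrsr1, a paternally expressed splicing factor gene derived from a retrotransposed copy, sits in an intron of Commd1. Zrsr1 had 6.62, 5.51 and 6.12 CPM in the JAG2KO libraries, against 10.9, 10.3 and 10.7 CPM in the Scramble libraries. Its groups did not overlap (log2 fold change -0.81, SE 0.14, edgeR adjusted p = 0.00137). Commd1, which acts in copper handling and protein trafficking, had 14.98, 14.0 and 14.3 CPM in JAG2KO libraries and 12.6, 14.1 and 13.5 CPM in Scramble libraries, and did not pass (log2 fold change 0.11, SE 0.11, edgeR adjusted p = 0.530). Per kilobase, Zrsr1 had 0.557 ± 0.0327 times the CPM of Commd1 in JAG2KO cells and 1.05 ± 0.0871 times in Scramble cells (SD, n = 3 each). The exons of the pair overlap by 412 bp on opposite strands, and Zrsr1 is a near copy of a gene elsewhere, so some reads may be shared.

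At the Dlk1-Meg3 locus on chromosome 12 the 3 maternally expressed non-coding RNAs had higher values in every JAG2KO library than in any Scramble library. Rian, the host of a snoRNA array, had 2.87, 2.98 and 2.47 CPM in the JAG2KO libraries, against 1.70, 1.28 and 1.73 CPM in the Scramble libraries. These groups did not overlap (log2 fold change 0.82, SE 0.26, edgeR adjusted p = 0.0362), but the call was lost with no filter and on leaving out any 1 of the 6 libraries (adjusted p = 0.0568 to 0.126). Mirg, which hosts a microRNA array, had 26, 14 and 18 counts in JAG2KO libraries and 0, 1 and 7 counts in Scramble libraries. Its groups did not overlap (log2 fold change 2.89, SE 0.89, edgeR adjusted p = 0.0341), and the call was lost on leaving out any library other than Scramble replicate 3 (adjusted p = 0.058 to 0.132). The ratio of its summed counts per depth was 7.81 (95% exact binomial interval 3.71 to 18.9, counting error only), and 43.1 (7.44 to 1733) without Scramble replicate 3, where 1 Scramble count is left.

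Meg3, the first RNA of the same cluster, had 3.33, 2.08 and 2.10 CPM in the JAG2KO libraries, against 1.84, 0.734 and 1.07 CPM in the Scramble libraries. The groups did not overlap, and the test missed the threshold (log2 fold change 1.04, SE 0.36, edgeR adjusted p = 0.0571). It passed with no filter, with DESeq2, with limma-voom and without Scramble replicate 1 (adjusted p = 0.0177 to 0.0468). Dlk1, the paternally expressed transmembrane protein that inhibits adipocyte differentiation, had 2, 2 and 11 counts in JAG2KO libraries and 1, 0 and 5 counts in Scramble libraries, and the groups overlapped. Polyadenylated RNA was sequenced, so the small RNAs that Rian and Mirg host were not measured.

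The remaining members did not pass. Gnas, which encodes the stimulatory G protein alpha subunit and several overlapping imprinted transcripts, had 35.9, 46.5 and 45.1 CPM in JAG2KO libraries and 41.0, 25.9 and 99.4 CPM in Scramble libraries (log2 fold change -0.38, SE 0.35, edgeR adjusted p = 0.475). Scramble replicate 3 stood well above the other 5 libraries, and without it the log2 fold change was 0.34. Nnat, a paternally expressed membrane proteolipid gene, had 3.95, 6.65 and 6.76 CPM in JAG2KO libraries and 5.42, 4.31 and 6.64 CPM in Scramble libraries (log2 fold change 0.09, SE 0.23, edgeR adjusted p = 0.828). Impact, a paternally expressed regulator of translation in the mouse, had 35.5, 34.6 and 40.0 CPM in JAG2KO libraries and 40.0, 34.5 and 34.1 CPM in Scramble libraries (log2 fold change 0.02, SE 0.09, edgeR adjusted p = 0.907). In all 3 genes the groups overlapped.

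**Figure D4:**
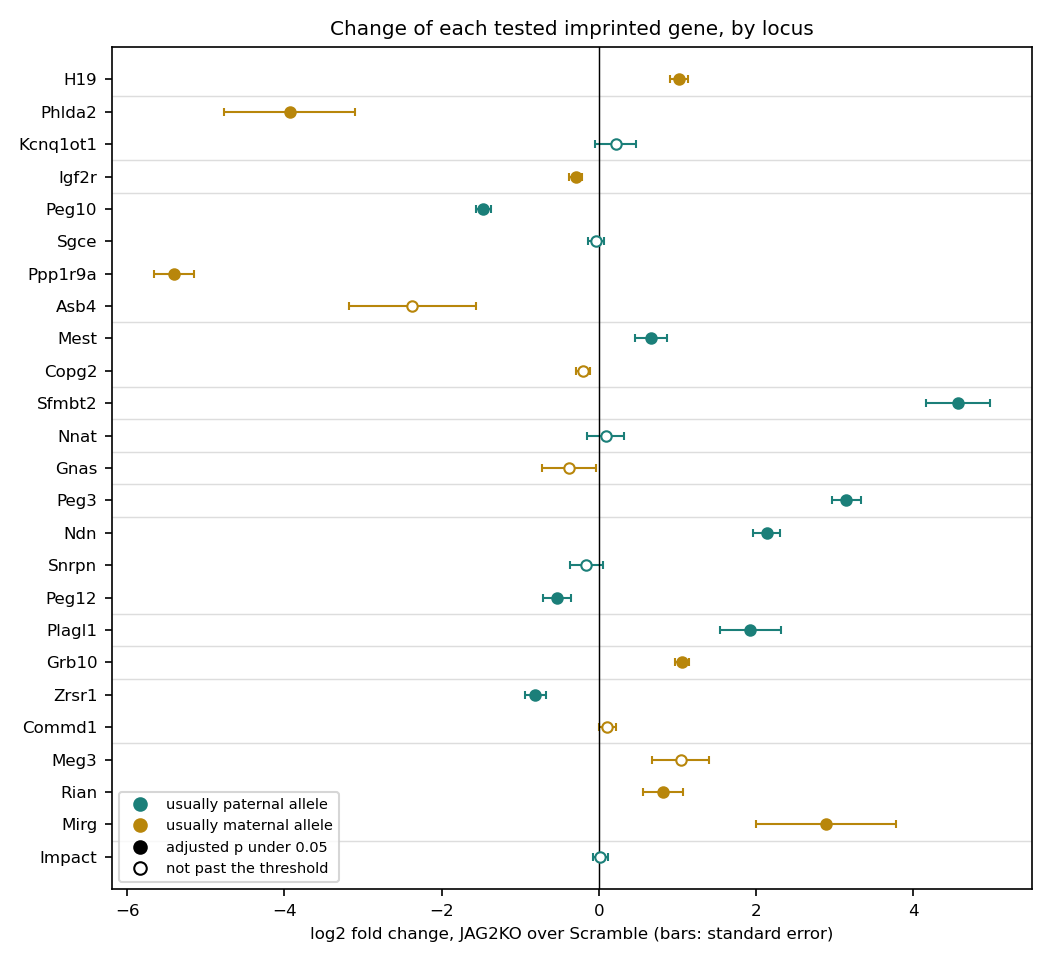
Log2 fold change, JAG2KO over Scramble (horizontal axis, bars are the standard error of the edgeR fit on 3 libraries per group) of the 25 tested imprinted genes by locus, coloured by the allele that is usually expressed; filled points have an adjusted p under 0.05. Points of both colours lie on both sides of 0, from Ppp1r9a at -5.41 to Sfmbt2 at 4.57.

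Ranked by CPM per kilobase of exon, H19 and Igf2r held the top ranks of the 25 in both groups. Igf2r had 29.4 CPM per kb in JAG2KO cells and 35.9 CPM per kb in Scramble cells. Below them the order differed. Grb10 was 3 of 25 in JAG2KO cells, at 10.2 CPM per kb, and 7 in Scramble cells, at 4.91 CPM per kb. Peg10 was 6 of 25 in JAG2KO cells, at 6.83 CPM per kb, and 3 in Scramble cells, at 18.9 CPM per kb. Ndn took rank 7 in JAG2KO cells and 14 in Scramble cells, and Peg3 took rank 10 in JAG2KO cells and 18 in Scramble cells. Exon lengths come from an annotation that may differ from the one used for counting.

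Further imprinted genes and the proteins that act on imprints were read from the same fit. These lists, and that of IGF signalling genes below, were chosen with earlier results of these data known. Their shares called therefore only describe the lists. Of 53 other imprinted genes, 33 were tested, and 6 were higher and 8 lower (42.4% called, against 24.3% of all tested genes). The solute carrier Slc38a4, an amino acid transporter gene, had 124.5, 120.6 and 115.1 CPM in JAG2KO libraries, against 21.2, 24.8 and 23.1 CPM in Scramble libraries (log2 fold change 2.38, SE 0.08, edgeR adjusted p = 1.72e-09). Peg13, a paternally expressed non-coding RNA, had 23.9, 18.8 and 19.5 CPM in JAG2KO libraries, against 4.92, 5.25 and 4.63 CPM in Scramble libraries (log2 fold change 2.07, SE 0.13, edgeR adjusted p = 7.57e-07). For both genes every JAG2KO library was above every Scramble library. Casd1, a sialic acid acetyltransferase gene near Peg10, fell to 11.9, 14.6 and 12.8 CPM in JAG2KO libraries, against 65.6, 62.1 and 70.4 CPM in Scramble libraries (edgeR adjusted p = 1.43e-08), and the tetraspanin gene Cd81 also fell (log2 fold change -0.95, edgeR adjusted p = 2.21e-06).

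Of 30 genes that set, keep or erase imprints, 27 were tested, and 6 were higher and 2 lower. The share called, 29.6%, was near the 24.3% of all tested genes. Zfp445, a zinc finger protein that protects imprints, averaged 115 ± 6.93 CPM in JAG2KO cells and 75.9 ± 1.28 CPM in Scramble cells (SD, n = 3 each; log2 fold change 0.60, edgeR adjusted p = 4.77e-05). Also higher were the 5-methylcytosine oxidase Tet2 (0.51), Arid4b (0.38) and the heterochromatin protein gene Cbx5 (0.28), as log2 fold changes. The maintenance methyltransferase Dnmt1 did not pass (log2 fold change -0.08, edgeR adjusted p = 0.395), nor did Zfp57 (-0.32, edgeR adjusted p = 0.0559). Of 27 insulin and IGF signalling genes, 23 were tested, and 11 were higher and 6 lower (73.9% called, against 24.3% of all tested genes). Stc1, which encodes stanniocalcin-1, an inhibitor of the protease that releases IGFs, averaged 10.1 ± 1.57 CPM in JAG2KO cells and 114 ± 8.20 CPM in Scramble cells (SD, n = 3 each; log2 fold change -3.50, edgeR adjusted p = 1.28e-09). The kinase gene Akt1 fell (-0.54), and the adaptor gene Grb14 (1.29) and the IGF-binding protein gene Igfbp5 (1.45) rose, as log2 fold changes.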

How the data were processed

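Gene-level raw read counts of 3 JAG2KO and 3 Scramble libraries were deposited as one table. Per the submitters' processing notes, STAR 2.7.7a and HTSeq 0.11.2 were used to make the counts; the sources used here do not give the genome build, annotation or strand setting. The JAG2KO columns carry the numbers 2 to 4, which differ from the titles, so they were used as unnumbered libraries of the group.

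Counts were fitted with edgeR 4.0.16 in R 4.3.3 (TMM factors, filterByExpr with a minimum count of 10 and a minimum total of 15, quasi-likelihood F test, 4 residual degrees of freedom). P-values were adjusted by Benjamini-Hochberg over all 16049 tested genes, and calls needed an adjusted p under 0.05. The standard error is the log2 fold change divided by the square root of F. CPM use TMM-scaled library sizes. The fit was also run on counts simulated with the dispersions estimated here. Such counts follow the model of the fit, so they cannot check it against the real spread between libraries. RLE factors, library totals alone, DESeq2 1.42.0 and limma-voom (limma 3.58.1), no filter, a filter at 1 CPM in 3 libraries and each library left out were tried. Of 55334 row IDs, 55154 matched GENCODE M21 (GRCm38) by stable ID and 54587 with the version, and gene coordinates and exon lengths come from it; Gnas, Peg3 and Rian matched by stable ID only.

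Every imprinted gene of the list is named. Of each other list, up to 4 called genes with the smallest p are named, besides a few non-passing imprint regulators chosen after their values were seen. The members and lists were chosen with earlier results of these data known. Libraries of one group differed by more than sampling noise (chi-square per degree of freedom 12.2 to 31.0), so none was taken as a repeat of another.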

Additional observations from a re-analysis of the deposited data

How the results depend on the processing

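Of the 15 imprinted genes called, 10 kept their call in every alternative that could be run (H19, Phlda2, Peg10, Ppp1r9a, Sfmbt2, Peg3, Ndn, Plagl1, Grb10 and Zrsr1), and the filter at 1 CPM removed Phlda2, Asb4 and Mirg. Over 297 recomputed values, 252 kept direction and side of the threshold, 26 lost the call, 10 gained it and 9 changed sign, all 9 in genes that had not passed. Leaving out 1 library gave log2 fold changes of -0.17 to 0.49 for Kcnq1ot1, -0.12 to 0.050 for Sgce, -0.048 to 0.30 for Nnat, -0.71 to 0.34 for Gnas and -0.048 to 0.11 for Impact. With no filter, Gnas passed as lower at adjusted p = 0.000351. No paired analysis was possible because the numbers of the JAG2KO columns, 2 to 4, do not match the titles' 1 to 3, so no column of that group could be given a replicate number. The 9 members that did not reach 10 counts in 3 libraries were not tested, so no change is called for them.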

Other observations

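Of 31 Polycomb genes tested, 3 were higher and 6 lower in JAG2KO cells, and the share called, 29.0%, was near the 24.3% of all tested genes. Cbx7 (log2 fold change 0.81, edgeR adjusted p = 3.85e-05) and Aebp2 (0.45, adjusted p = 0.0018) were higher, while the methyltransferase gene Ezh2 (-0.48, adjusted p = 0.00186) and Pcgf3 (-0.35, adjusted p = 0.00244) were lower. Of 5 tested CDK inhibitor genes other than Cdkn1c, Cdkn2d was the 1 that passed (log2 fold change -0.49, edgeR adjusted p = 0.0155).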
